A study of Mus musculus with 6 samples.

Results

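The genes described here are 10 genes of the machinery that decides whether a cell leaves G1 and begins to copy its DNA. They are the D-type cyclins Ccnd2 and Ccnd3, the E-type cyclins Ccne1 and Ccne2, the cyclin-dependent kinases Cdk4 and Cdk6, the transcription factors E2f1 and E2f2, and the pocket proteins Rb1 and Rbl2. They were chosen by name from the 46963 gene names of the count table, and all 10 passed the filter on low counts (at least 10 counts in at least 2 libraries), as did 14600 genes in all.

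RNA was sequenced from CD43-depleted splenic B-cells of 8–12 week old mice, which were 129 wt mice, Eμ-deficient mice (named EμMAR-deficient in the methods, lacking the enhancer that lies between the joining genes and the constant genes of the IgH locus) and 3′RR-deficient mice (lacking the super-enhancer at the 3′ end of that locus), both in a 129 background. For each genotype, 1 library of resting cells and 1 library of cells cultured for 2 days with 5 μg per ml lipopolysaccharide (LPS, a bacterial membrane component that drives B-cells to divide) were analysed, 6 libraries in all, each from a pool of 2 mice according to the labels. The labels describe the resting cells as cultured in medium for the same 2 days, whereas the methods describe cells taken before stimulation. The study describes the Eμ-deficient model as lacking follicular B-cells. Depth went from 9111974 to 21998587 counts on genes. B-cell markers summed to 2694.8, 1965.0 and 3036.1 CPM in resting wt, Eμ-deficient and 3′RR-deficient B-cells. In the LPS libraries they summed to 1925.9, 1687.7 and 2014.3 CPM in the same order, lowest in Eμ-deficient in both states.

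In quiescent cells, Rb1 and Rbl2 hold E2F factors at the promoters of replication genes and keep these genes silent. A mitogen raises the D-type cyclins, which activate Cdk4 and Cdk6 to phosphorylate the pocket proteins, and the freed E2F factors then activate the E-type cyclins, the partners of the kinase Cdk2, and with them the genes of S phase. Splenic B-cells are mostly quiescent until they meet a stimulus, and they rely on Ccnd2 and Ccnd3 rather than on Ccnd1.

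Of the 10 genes, 7 rose with LPS and 0 fell. This was tested with edgeR's quasi-likelihood test in an additive model of genotype and LPS, fitted to all 14600 genes, at a Benjamini-Hochberg adjusted p of 0.05. Since each genotype has 1 library per culture state, the spread behind this test is the departure of the 3 genotypes from a common LPS effect, not the spread between mice. Over all genes tested, 19.7% rose and 21.1% fell. The 7 genes were Ccnd2, Ccne1, Ccne2, Cdk4, Cdk6, E2f1 and E2f2, and each of them was higher in every LPS library than in every resting library, a pattern that 25.0% of all genes showed. For Rbl2 every LPS library was below every resting library, which held for 27.3% of all genes, and for Ccnd3 and Rb1 the libraries overlapped. The fitted log2 LPS effect of the 10 genes had a median of 1.41, against -0.07 over all genes tested. In bulk RNA, fewer cells that express a gene and less RNA of it per cell cannot be told apart.

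**Figure D1:**
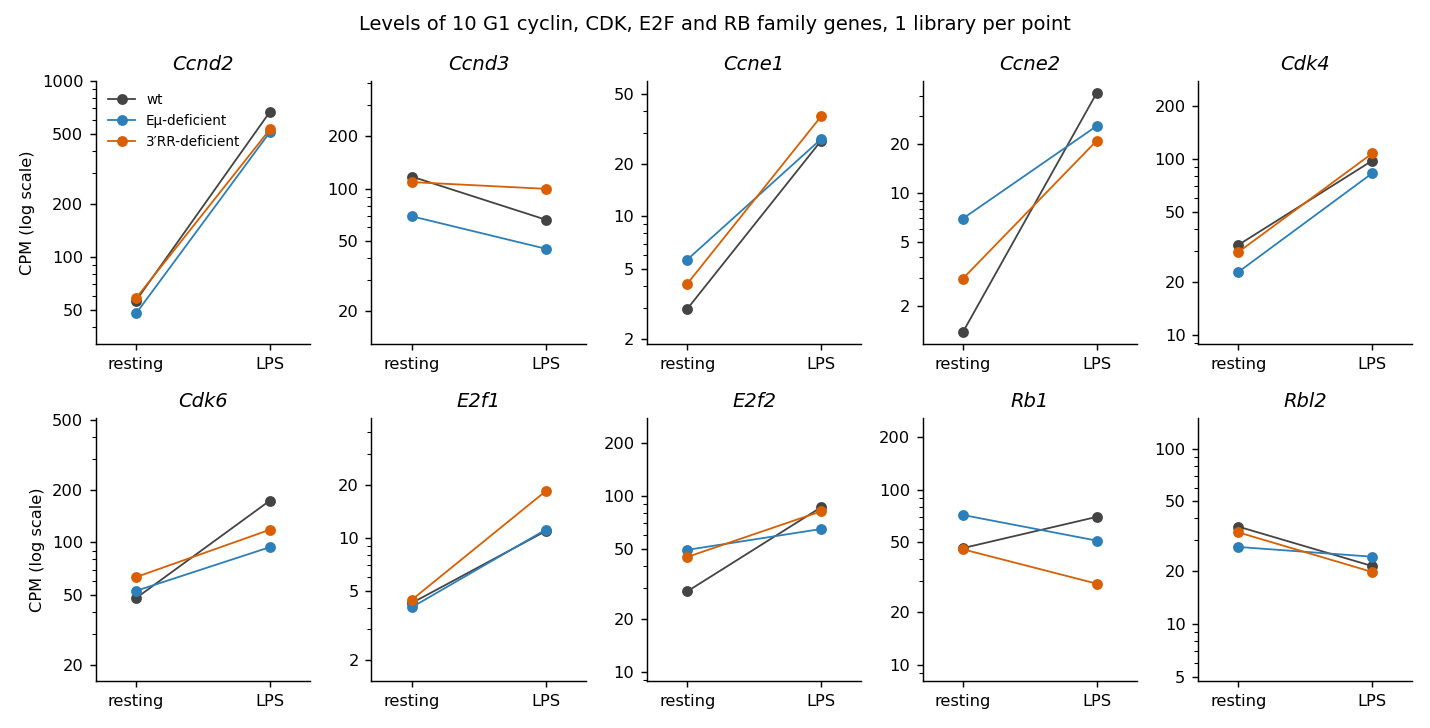
Levels of the 10 genes in CPM on a log axis (each panel has its own range), from resting to LPS-stimulated B-cells. Each point is 1 library and each line joins the 2 libraries of a genotype. All lines of Ccnd2, Ccne1, Ccne2, Cdk4, Cdk6, E2f1 and E2f2 go up, and the lines of Rb1 go up in wt (46.4 to 69.9 CPM) and down in both mutants.

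Ccnd2, a D-type cyclin that B-cells induce on activation, showed the highest LPS level of the 10 genes. It lies on the minus strand of chr6:127125162-127152193 (mm10, GRCm38, the build of all coordinates here). In resting B-cells it stood at 56.2 CPM (1022 counts) in wt, 47.5 in Eμ-deficient and 58.1 in 3′RR-deficient cells, where CPM are counts scaled by TMM to a common library size. With LPS it stood at 670.0, 513.5 and 532.0 CPM, respectively. The groups were far apart, and the resting libraries lay close together. The fitted LPS effect was a log2 fold change of 3.40 (SE 0.28, edgeR adjusted p = 8.18e-05). Within the genotypes, LPS over resting was 11.9-fold in wt, 10.8-fold in Eμ-deficient and 9.16-fold in 3′RR-deficient B-cells.

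Ccnd3, the other D-type cyclin that B-cells use, lies on the plus strand of chr17:47505051-47599691. It stood at 117.0, 69.5 and 108.8 CPM in resting wt, Eμ-deficient and 3′RR-deficient B-cells, and at 66.5, 45.4 and 99.6 CPM with LPS. Each genotype was lower with LPS than at rest, but the 3′RR-deficient LPS library lay above the resting Eμ-deficient one. The fitted log2 fold change was -0.52 (SE 0.24, edgeR adjusted p = 0.113), short of the threshold. The log2 ratio of LPS over resting was -0.81 in wt with a 95% interval of -0.91 to -0.72, -0.61 in Eμ-deficient (-0.78 to -0.45) and -0.13 in 3′RR-deficient B-cells (-0.24 to -0.01). These intervals compare 2 libraries and cover counting error only. The table also holds a pseudogene of Ccnd3, and since reads that map to several places were counted, these genes can exchange reads.

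The D-type cyclin with the largest share was Ccnd3 at rest and Ccnd2 with LPS. Levels per kb of exon divide by all annotated exon bases of a gene, not by the length of 1 transcript. For Ccnd3 these are 8775 bases against 3858 in its longest transcript, and for Ccnd2 9409 against 6330. The size of shares and of ratios between genes depends on this choice. Per kb of exon, Ccnd3 made up 61.6% of the summed level of the 3 D-type cyclin genes in resting wt, 47.4% in resting Eμ-deficient and 52.8% in resting 3′RR-deficient B-cells. In the LPS libraries it made up 9.62%, 8.66% and 16.7%, and Ccnd2 made up 90.3%, 91.3% and 83.2%. The resting and LPS libraries did not overlap in either share. The ratio of Ccnd2 to Ccnd3 per kb went from 0.448 to 9.39 in wt, from 0.637 to 10.5 in Eμ-deficient and from 0.498 to 4.98 in 3′RR-deficient B-cells. The remaining share was Ccnd1, which most other tissues use and which is not one of the 10 genes. It had 199, 233 and 474 counts in the resting libraries in the same order, and 3, 1 and 3 counts with LPS. The log2 ratios of LPS over resting for Ccnd1 were -6.25 (95% interval -8.54 to -4.69), -7.56 (-12.87 to -5.06) and -6.10 (-8.38 to -4.54). Markers of other cell types fell with it, all 7 of 7 myeloid, all 7 of 7 erythroid and 6 of 7 T-cell markers. Over all genes tested, 21.1% fell with LPS. Myeloid markers went from a sum of 161.1–399.1 CPM in the resting libraries to 18.4–32.4 CPM in the LPS libraries. Erythroid markers went from 3375.8–20380.2 to 52.9–672.3 CPM, and no marker was at 0 in all libraries. Resting Ccnd1 stood at 10.9, 17.6 and 23.0 CPM in wt, Eμ-deficient and 3′RR-deficient B-cells, where myeloid markers summed to 161.1, 399.1 and 168.3 CPM. The part of these markers in the Ccnd1 values was not tested.

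**Figure D2:**
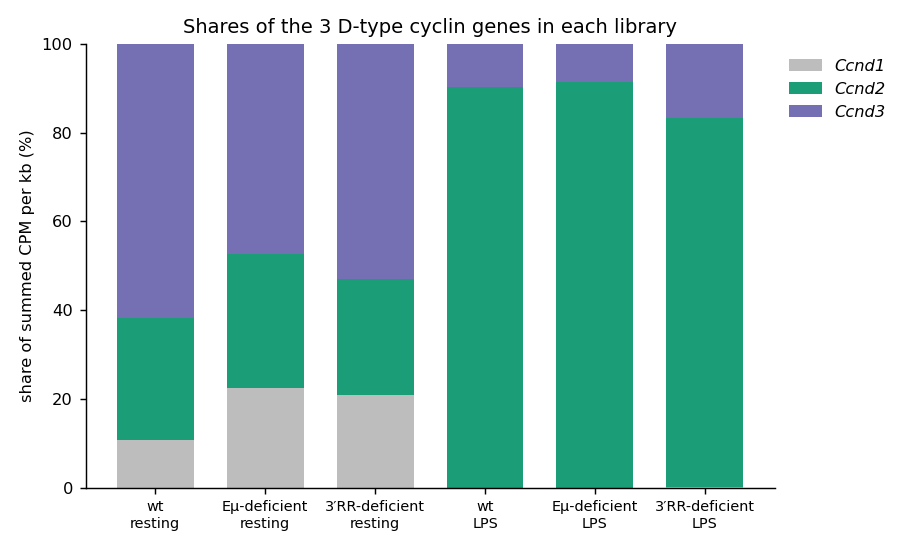
Share in percent of each D-type cyclin gene in the summed CPM per kb of exon of Ccnd1, Ccnd2 and Ccnd3, 1 bar per library. Ccnd3 has the largest share in the 3 resting libraries (47.4% to 61.6%) and Ccnd2 in the 3 LPS libraries (83.2% to 91.3%).

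Cdk4, a kinase partner of the D-type cyclins, rose from 32.5, 22.8 and 29.6 CPM in resting wt, Eμ-deficient and 3′RR-deficient B-cells to 98.2, 83.3 and 108.1 CPM with LPS. The Eμ-deficient library was the lowest in both states, and the groups were well apart. In the model, the log2 fold change was 1.78 (SE 0.22, edgeR adjusted p = 0.000461), with 3.03-fold, 3.66-fold and 3.64-fold ratios within the genotypes. Tspan31, which overlaps Cdk4 on the opposite strand, received 264, 295 and 242 counts in resting wt, Eμ-deficient and 3′RR-deficient B-cells. With LPS it received 829, 386 and 222 counts. The counting was set to be strand-specific, and how well it kept the reads of these genes apart was not checked.

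The promoter of Cdk4 is shown because it holds the E-box CACGTG, the word bound by MYC and MAX, 4 times. It comes from RefSeq (GRCm38.p6, plus strand, chr10:127063285-127063534), covers the 250 bases up to the annotated start, and has the matches in capitals.
Cdk4 promoter: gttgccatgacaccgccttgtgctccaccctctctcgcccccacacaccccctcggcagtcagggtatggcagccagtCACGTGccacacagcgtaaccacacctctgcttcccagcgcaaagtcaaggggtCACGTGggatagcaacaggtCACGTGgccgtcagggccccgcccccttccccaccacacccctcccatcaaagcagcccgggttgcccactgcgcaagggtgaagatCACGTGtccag
Read 5′ to 3′, the matches begin at positions -172, -118, -98 and -11 from the start. CACGTG reads the same on both strands. Of the 32851 promoter windows in the RefSeq table (250 bases before to 50 after each start), 7.15% held at least 1 match and 8 windows (0.0244%) held 4 or more. The match is one of letters, and no binding was measured. Among the 9 windows of the 10 genes (7 genes had one), 2 held a CACGTG, those of Cdk4 and Cdk6.

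Cdk6, the other kinase that pairs with D-type cyclins, lies on the plus strand of chr5:3341485-3531008. It stood at 48.2, 53.0 and 63.5 CPM in resting wt, Eμ-deficient and 3′RR-deficient B-cells and at 173.4, 94.1 and 118.3 CPM with LPS. The wt library was the lowest at rest and the highest with LPS. Its modelled LPS effect was a log2 fold change of 1.19 (SE 0.28, edgeR adjusted p = 0.00848). LPS over resting was 3.60-fold in wt, 1.78-fold in Eμ-deficient and 1.86-fold in 3′RR-deficient B-cells. Per kb of exon, Cdk4 was above Cdk6 in all 6 libraries, by 1.85-fold to 2.90-fold at rest and by 2.44-fold to 3.93-fold with LPS.

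Ccne1, an E-type cyclin that drives entry into S phase with Cdk2, was low at rest and rose with LPS. It stood at 2.97 CPM (54 counts), 5.67 CPM (75 counts) and 4.13 CPM (85 counts) in resting wt, Eμ-deficient and 3′RR-deficient B-cells. With LPS it stood at 27.0, 27.6 and 37.2 CPM. The groups were well apart, and the order of the genotypes differed between the states. The fitted log2 fold change was 2.88 (SE 0.29, edgeR adjusted p = 0.000171).

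The Ccne1 promoter is shown as that of a member with repeated GC boxes, the word GGGCGG bound by SP1. It is the RefSeq sequence (GRCm38.p6, minus strand, chr7:38107491-38107740) of the 250 bases up to the start, with GGGCGG and its reverse complement CCGCCC in capitals.
Ccne1 promoter: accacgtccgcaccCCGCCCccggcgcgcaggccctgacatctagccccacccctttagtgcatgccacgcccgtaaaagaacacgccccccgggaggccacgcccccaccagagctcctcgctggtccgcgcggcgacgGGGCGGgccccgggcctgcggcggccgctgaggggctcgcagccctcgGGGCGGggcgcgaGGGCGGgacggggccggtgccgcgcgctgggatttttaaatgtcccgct
The 4 matches begin at positions -236, -110, -62 and -49. At least 1 GC box was found in 35.7% of all 32851 windows and 4 or more in 5.49%. Of the 9 windows of the 10 genes, 7 held at least 1.

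Ccne2, the second E-type cyclin, had the widest spread at rest relative to its level. It stood at 1.38 CPM (25 counts) in resting wt, 6.96 CPM (92 counts) in resting Eμ-deficient and 2.96 CPM (61 counts) in resting 3′RR-deficient B-cells. With LPS it stood at 41.6, 26.0 and 21.1 CPM, so that wt was lowest at rest and highest with LPS. The groups did not overlap, and the fitted log2 fold change was 3.13 (SE 0.51, edgeR adjusted p = 0.00163), with the largest SE of the 10 genes. LPS over resting was 30.2-fold in wt, 3.74-fold in Eμ-deficient and 7.12-fold in 3′RR-deficient B-cells. Per kb of exon, Ccne1 was above Ccne2 in the 3 resting libraries (1.07-fold to 2.84-fold) and in both mutants with LPS (1.39-fold and 2.31-fold), but below it in wt with LPS (0.851).

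E2f1, an activating E2F factor, rose from 4.24, 4.01 and 4.42 CPM (53 to 91 counts) in the resting libraries (again wt, Eμ-deficient, 3′RR-deficient) to 10.9, 11.1 and 18.4 CPM with LPS. The resting libraries were nearly equal, and the 3′RR-deficient library was the highest with LPS. The fitted log2 fold change was 1.63 (SE 0.29, edgeR adjusted p = 0.00224).

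E2f2, an activating E2F factor of lymphoid and erythroid cells, stood at 28.7, 49.5 and 45.1 CPM at rest and at 86.6, 65.1 and 82.1 CPM with LPS. The groups did not overlap, but both mutants started from a higher level than wt. Its LPS effect in the model was a log2 fold change of 0.95 (SE 0.27, edgeR adjusted p = 0.022), the smallest of the 7 rises. LPS over resting was 3.01-fold in wt, 1.32-fold in Eμ-deficient and 1.82-fold in 3′RR-deficient B-cells. Per kb of exon, E2f2 was above E2f1 in every library, and the ratio of E2f1 to E2f2 was between 0.125 and 0.347.

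Of the promoter windows of the 10 genes, 1 held an E2F word (TTTCCCGC, TTTCGCGC, TTTGGCGC or TTTGCCGC, both strands), which 2.26% of all windows did. It was that of E2f2, whose matching stretch follows the RefSeq start (GRCm38.p6, plus strand, chr4:136172299-136172323) with the word in capitals.
E2f2 site: ttggcggcatatagTTTGGCGCtaa
The match spans positions 40 to 47 after the start. The absence of these letters from the other windows says nothing about E2F binding there.

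Rb1, the retinoblastoma protein gene, lies on the minus strand of chr14:73183673-73325822 and had LPS ratios of different sign in the genotypes. It stood at 46.4, 71.7 and 45.7 CPM in resting wt, Eμ-deficient and 3′RR-deficient B-cells and at 69.9, 51.2 and 29.1 CPM with LPS. The highest value was that of resting Eμ-deficient and the lowest that of LPS-stimulated 3′RR-deficient B-cells, and the groups overlapped. In the model the log2 fold change was -0.18 (SE 0.29, edgeR adjusted p = 0.637). The log2 ratio of LPS over resting was 0.59 in wt (95% interval 0.47 to 0.72), -0.49 in Eμ-deficient (-0.64 to -0.33) and -0.65 in 3′RR-deficient B-cells (-0.86 to -0.45). With library sizes set by the spike-in RNAs, the wt ratio was -0.20, so that its direction depends on the scaling. Without the wt libraries the fitted value was -0.55 (edgeR adjusted p = 0.031). Gm17233, which overlaps Rb1 on the same strand, had 4 to 42 counts per library, and Rcbtb2 and Lpar6 overlap it on the other strand.

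Rbl2, the pocket protein p130, which with E2f4 and the MuvB core represses cell cycle genes in quiescent cells, stood at 35.9, 27.5 and 33.3 CPM in resting wt, Eμ-deficient and 3′RR-deficient B-cells and at 21.4, 24.2 and 19.8 CPM with LPS. All LPS libraries were below all resting libraries. The fitted log2 fold change was -0.56 (SE 0.24, edgeR adjusted p = 0.0826), short of the threshold. With the trend of the libraries on GC content removed it was -0.58 (edgeR adjusted p = 0.0363). The log2 ratio was -0.75 in wt and in 3′RR-deficient B-cells, and -0.18 in Eμ-deficient B-cells with an interval that includes 0 (-0.42 to 0.05).

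The Rbl2 promoter is shown as that of a gene without a called rise, and no contrast with the genes that rose is drawn from it. Each window of Ccnd3, which was not called either, held 2 GC boxes. The window of Cdk6, which rose, held 0. In the 250 bases up to its start (RefSeq, GRCm38.p6, plus strand, chr8:91069807-91070056) none of the 3 kinds of word searched was found, and no letters are in capitals. The 50 bases after the start, not printed, hold 1 GC box, so that Rbl2 is among the 7 windows counted above.
Rbl2 promoter: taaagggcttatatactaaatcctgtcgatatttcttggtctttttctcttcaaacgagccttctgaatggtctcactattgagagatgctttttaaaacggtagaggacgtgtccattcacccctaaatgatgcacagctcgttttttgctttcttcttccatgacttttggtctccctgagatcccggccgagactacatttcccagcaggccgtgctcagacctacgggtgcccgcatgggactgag
Its window as a whole had a GC content of 50.7%, the lowest of the 9 windows, the highest being 77.3% in E2f1.

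**Figure D3:**
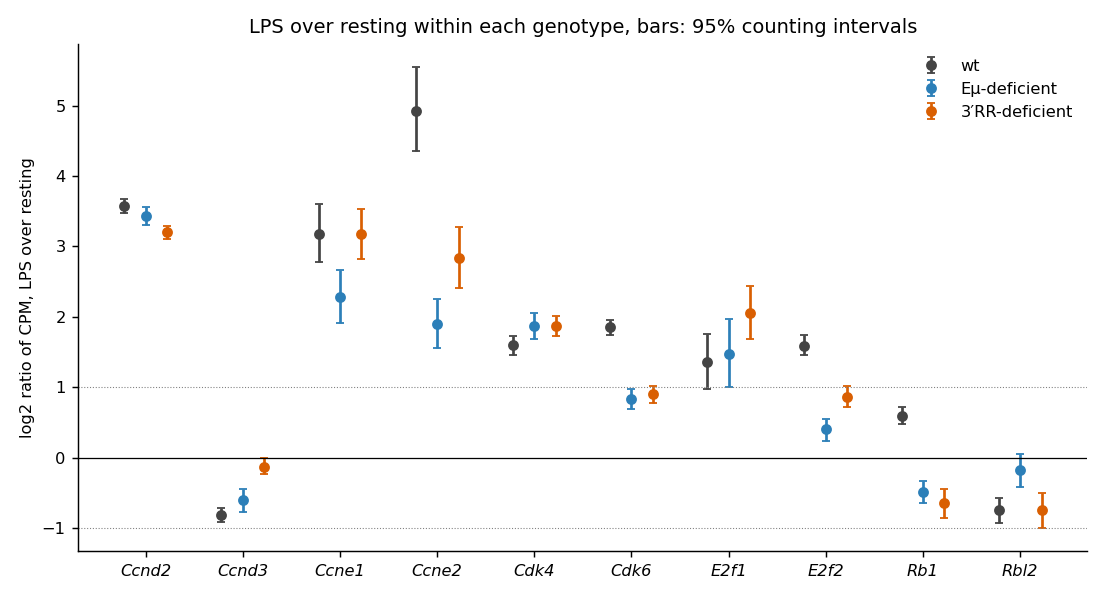
Log2 ratio of CPM, LPS over resting, for each of the 10 genes within each genotype, with 95% counting intervals as bars and dotted lines at a 2-fold change. Ratios of 7 genes are above 0 in all genotypes, Rb1 is above 0 in wt (0.59) and below 0 in both mutants, and wt has the highest ratio of Ccne2 (4.92), Cdk6 (1.85) and E2f2 (1.59).

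The order of the 10 genes by level per kb of exon changed between the states. It rests on all annotated exon bases of each gene, and ranks by the length of a single transcript can differ. At rest, Ccnd3 led with 11.2 ± 2.89 CPM per kb (SD, n = 3 libraries of different genotypes), followed by Rb1 (9.08 ± 2.47), Cdk4 (8.71 ± 1.53), E2f2 (8.42 ± 2.24) and Ccnd2 (5.73 ± 0.599), and the ranges of neighbours in this order overlapped. Rbl2 (4.27 ± 0.573) and Cdk6 (3.92 ± 0.559) overlapped with each other and lay apart from the genes above and below this pair. Ccne1, E2f1 and Ccne2 were the lowest at 1.60 ± 0.51, 1.34 ± 0.0655 and 1.08 ± 0.824, and their ranges overlapped. With LPS, Ccnd2 led with 60.8 ± 9.09 and Cdk4 followed with 29.7 ± 3.84, each apart from the next gene. E2f2, Ccne1, Cdk6, Ccne2, Rb1, Ccnd3 and E2f1 came next, between 16.0 ± 2.32 and 4.28 ± 1.36, and the neighbours among these overlapped. Rbl2 was the lowest with 2.88 ± 0.294.

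Within single genotypes, the count of genes at least 2-fold higher with LPS was 7 of 10 in wt, 5 in Eμ-deficient and 5 in 3′RR-deficient B-cells, where 21.4%, 17.0% and 18.6% of all genes were. None of the 10 genes was 2-fold lower, where 25.4%, 19.9% and 21.0% of all genes were. Cdk6 and E2f2 were the genes past 2-fold in wt and not in the mutants, a split that depends on the scaling. With library sizes set by the spike-in RNAs, the log2 ratio of E2f2 was 0.80 in wt, 0.56 in Eμ-deficient and 0.86 in 3′RR-deficient B-cells, and that of Cdk6 was 1.05, 1.00 and 0.90. With the trend on transcript length removed, Cdk6 was past 2-fold in all 3 genotypes (lowest in Eμ-deficient, 1.31), and E2f2 was at 1.78, 0.54 and 1.04. In these LPS over resting pairs, spike-in RNAs had an SD of the log2 ratio of 0.78 in wt, 0.13 in Eμ-deficient and 0.63 in 3′RR-deficient B-cells. The LPS effect of Ccne2 was 3.02 lower (log2) in Eμ-deficient than in wt and 2.09 lower in 3′RR-deficient than in wt, and with the GC trend removed these differences were -2.22 and -0.90. Those of E2f2 were -1.20 and -0.73, or -1.68 and -1.34 with the GC trend removed, and those of Cdk6 were -1.02 and -0.95, or -0.76 and -0.56. In the spike-in scaled ratios above, the genotypes differed by less in E2f2 and Cdk6, and 3′RR-deficient was not below wt in E2f2. The spike-in scaled ratios of Ccne2 were 4.12 in wt, 2.07 in Eμ-deficient and 2.83 in 3′RR-deficient B-cells. For Ccnd2, the differences from wt with TMM scaling were -0.14 in Eμ-deficient and -0.38 in 3′RR-deficient B-cells. Its spike-in scaled ratios were 2.78 in wt, 3.60 in Eμ-deficient and 3.19 in 3′RR-deficient B-cells, so that wt was then the lowest. An effect in Eμ-deficient that was at least 2-fold apart from that of wt, either way, was found for 25.6% of all genes, and in 3′RR-deficient for 32.0%. With 1 library per genotype and state these differences could not be tested, and both use the same wt libraries.

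Neither genotype term called any of the 10 genes in the additive model, with edgeR's quasi-likelihood test. Over all genes tested, 0.171% were called higher and 0.507% lower in 3′RR-deficient than in wt, and 0.911% higher and 0.253% lower in Eμ-deficient than in wt. At an unadjusted p under 0.05, none of the 10 genes passed either, where 831 and 1267 genes did. The values nearest to it were those of Ccnd3 in Eμ-deficient B-cells (log2 -0.66, SE 0.29, edgeR adjusted p = 0.586) and of Rb1 in 3′RR-deficient B-cells (log2 -0.67, SE 0.35, edgeR adjusted p = 0.914). On simulated counts, the model recovered 4.00% to 4.50% of 2-fold and 74.0% to 75.5% of 4-fold genotype differences, so that a 2-fold difference was mostly not detectable.

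Within a culture state, 3 of the 40 ratios of a mutant to wt were at least 2-fold. They are given with counting intervals and no test, and those of both mutants use the same wt library. Ccne2 was 5.06-fold higher in resting Eμ-deficient than in resting wt B-cells (log2 2.34, 95% interval 1.69 to 3.04), where 12.6% of all genes were at least 2-fold higher. It was also 2.16-fold higher in resting 3′RR-deficient B-cells (log2 1.11, interval 0.42 to 1.84), where 5.38% of all genes were. These ratios rest on 25 counts in the wt library. With LPS, Rb1 was lower in 3′RR-deficient than in wt B-cells (log2 -1.27, interval -1.46 to -1.07), where 10.7% of all genes were at least 2-fold lower. In the other comparisons and directions, 0 of the 10 genes passed 2-fold, where 5.62% of all genes were lower in resting Eμ-deficient, 3.95% lower in resting 3′RR-deficient, 9.12% higher and 3.4% lower in Eμ-deficient with LPS, and 15.9% higher in 3′RR-deficient with LPS.

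At rest, Eμ-deficient B-cells were also higher than wt in Ccne1 (log2 0.93, interval 0.41 to 1.47), E2f2 (0.79, 0.62 to 0.95) and Rb1 (0.63, 0.49 to 0.77), and lower in Ccnd3 (-0.75, -0.86 to -0.64), Cdk4 (-0.51, -0.72 to -0.31), Rbl2 (-0.39, -0.58 to -0.20) and Ccnd2 (-0.24, -0.39 to -0.10). Resting 3′RR-deficient B-cells differed from wt beyond counting error in Ccne2, E2f2 (0.65, 0.50 to 0.81) and Cdk6 (0.40, 0.27 to 0.52), which were higher, and in Ccnd3 (-0.11, -0.19 to -0.02), which was slightly lower. The share of all genes that differ beyond counting error is not given here, so these are values and not a result about the 10 genes. Higher E2f2 and Ccne2 were thus measured in both mutants at rest. Markers of red cell precursors, in which E2f2 is also expressed, summed to 20380.2 CPM in the resting Eμ-deficient library, 3375.8 in resting wt and 3906.3 in resting 3′RR-deficient B-cells, and to 52.9–672.3 CPM in the LPS libraries. All 7 of these markers were called higher in Eμ-deficient than in wt, where 0.911% of all genes were. All 7 fell with LPS, where 21.1% of all genes did, and no marker was at 0 in all libraries. The resting Eμ-deficient library was also the highest at rest in plasma cell markers (2232.0 CPM, against 546.3 in wt and 590.9 in 3′RR-deficient B-cells), myeloid markers (399.1, against 161.1 and 168.3) and T-cell markers (34.0, against 16.1 and 22.1). In B-cell markers it was the lowest at rest (1965.0 CPM, against 2694.8 and 3036.1). Of these lists, 1 plasma cell marker, Jchain, was called higher in Eμ-deficient than in wt (log2 3.55, edgeR adjusted p = 0.00748). The part of these markers in the values of the 10 genes was not tested. With library sizes set by the spike-in RNAs, all Eμ-deficient over wt ratios at rest were 0.81 lower, so that those of E2f2 (-0.03), Rb1 (-0.18) and Cdk6 (-0.68) were below 0. The Eμ-deficient over wt ratios at rest also went with GC content (Spearman correlation -0.38 across 13993 genes, which are not replicates). With that trend removed, those of Ccne2 (1.82), Rb1 (0.31), Ccnd3 (-0.38) and Cdk4 (-0.28) were weaker. Those of Ccne1 (1.14), E2f2 (1.15), Rbl2 (-0.45) and Ccnd2 (-0.30) were stronger.

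With LPS, Eμ-deficient B-cells were below wt in Cdk6 (log2 -0.88, interval -0.98 to -0.78), Ccne2 (-0.68, -0.88 to -0.48), Ccnd3 (-0.55, -0.70 to -0.40), Rb1 (-0.45, -0.59 to -0.31), E2f2 (-0.41, -0.54 to -0.28), Ccnd2 (-0.38, -0.43 to -0.34) and Cdk4 (-0.24, -0.35 to -0.12). Intervals of the other 3 genes included 0. The share of all genes whose interval excludes 0 is not given here. The median over the 10 genes was -0.40, against 0.03 over all genes tested. With TMM scaling, Ccnd2, Ccnd3 and Cdk4 were thus below wt beyond counting error in both states of this genotype. With library sizes set by the spike-in RNAs, their LPS ratios were -0.23, -0.40 and -0.09, so that of Cdk4 depends on the scaling. With the GC trend removed they were -0.34, -0.67 and -0.30. B-cell markers were also below wt in both states (1687.7 against 1925.9 CPM with LPS), and their part in these values was not tested.

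**Figure D4:**
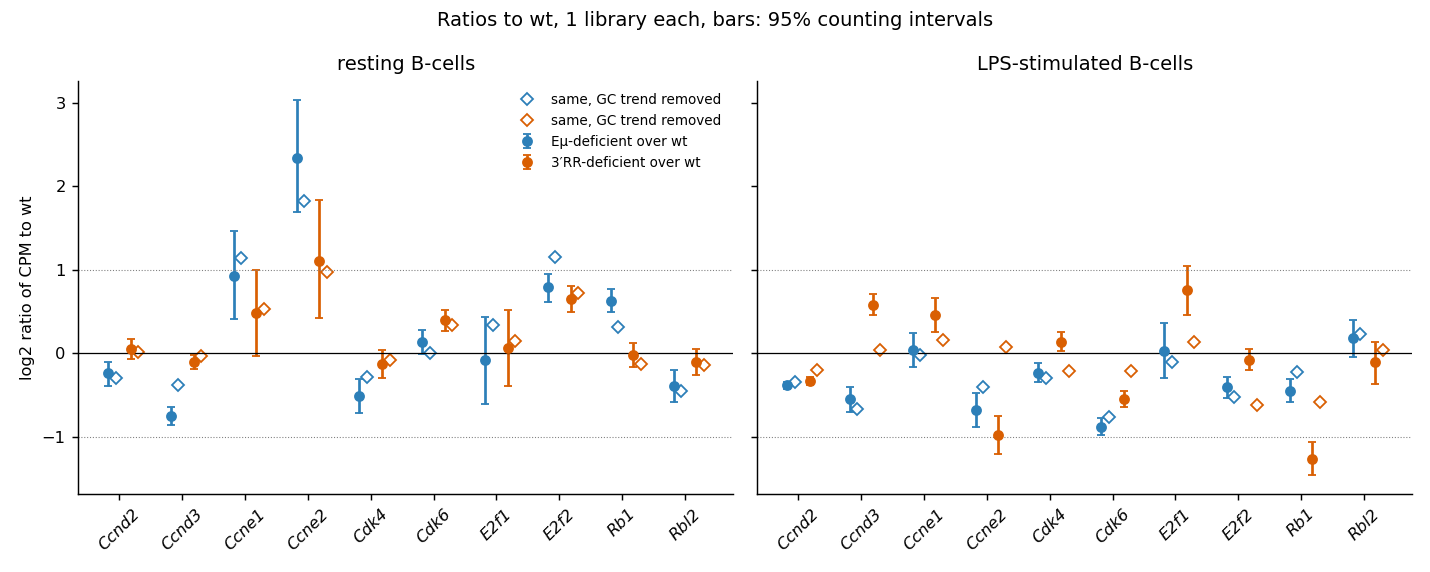
Log2 ratios of CPM of each mutant to wt for the 10 genes at rest (left) and with LPS (right). Filled points are the ratios with 95% counting intervals, open diamonds are the same ratios with the GC trend of all genes removed, and dotted lines mark 2-fold. Ccne2 in resting Eμ-deficient B-cells (2.34) is the ratio farthest from 0.

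With LPS, the ratios of 3′RR-deficient to wt B-cells went with the GC content of the transcripts. The 5 genes with a GC content under 50% (Ccne2 36.3%, Rb1 41.2%, Cdk6 45.1%, Rbl2 47.0% and Ccnd2 47.1%) all had log2 ratios below 0, from -1.27 in Rb1 to -0.11 in Rbl2, with a median of -0.55. Of the 5 genes with a higher GC content (Ccne1 52.7%, Cdk4 53.3%, E2f2 56.6%, Ccnd3 56.7% and E2f1 58.3%), 1 was below 0, and the ratios went from -0.08 in E2f2 to 0.76 in E2f1, with a median of 0.46. The same trend was seen as a tendency across all genes in this pair of libraries. The Spearman correlation of GC content and log2 ratio was 0.56 across 13993 genes, which are not independent replicates, and the median log2 ratio went from -0.83 in the group of lowest GC content to 0.82 in that of highest, of 10 groups of equal size. The 35 spike-in RNAs with at least 100 counts, which do not come from the cells, had an SD of the log2 ratio of 1.27 in this pair of libraries (-2.60 to 2.17), against 0.16 in resting 3′RR-deficient over resting wt B-cells.

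With the trend of all genes removed, the same ratios lay between -0.58 and 0.08 in the genes of low GC content (median -0.20) and between -0.62 and 0.16 in the others (median 0.04). Those of Ccne2 went from -0.98 to 0.08, of E2f1 from 0.76 to 0.14, of Ccnd3 from 0.58 to 0.04 and of Rb1 from -1.27 to -0.58, while that of E2f2 went from -0.08 to -0.62. After this, none of these 10 ratios was past 2-fold.

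**Figure D5:**
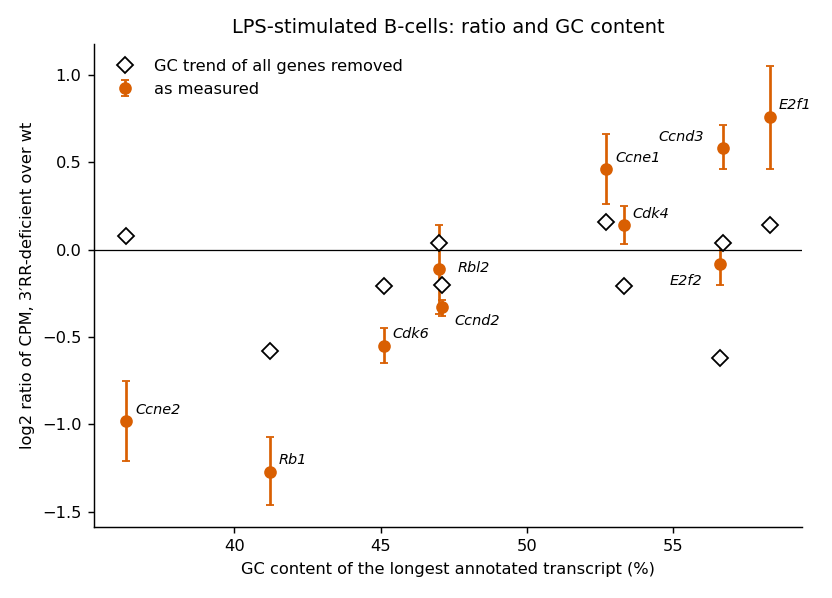
Log2 ratio of CPM, 3′RR-deficient over wt with LPS, against the GC content in percent of the longest annotated transcript of each gene. Orange points are the measured ratios with 95% counting intervals and open diamonds the ratios with the GC trend of all genes removed. Measured ratios go from -1.27 (Rb1) to 0.76 (E2f1), and the diamonds lie between -0.62 and 0.16.

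The other genes of the pathway were taken as lists and are given by counts. For all of these counts, the shares over all genes tested were 19.7% that rose with LPS and 21.1% that fell. Of 24 E2F target genes of DNA replication and S phase, 23 rose with LPS, 0 fell, and Cdt1 was not called, with a median log2 fold change of 2.53. The largest rises were those of Rrm2, the small subunit of ribonucleotide reductase (log2 4.17, SE 0.40, edgeR adjusted p = 0.000141), and of Ccna2, the S phase cyclin (3.77, SE 0.33, edgeR adjusted p = 0.000103). Rrm2 stood at 5.89, 19.2 and 10.8 CPM in resting wt, Eμ-deficient and 3′RR-deficient B-cells and at 211.7, 177.1 and 194.4 CPM with LPS. Ccna2 stood at 6.88, 16.2 and 10.2 CPM at rest and at 156.4, 129.9 and 144.6 CPM with LPS. Both had the order of Ccne1 and Ccne2 at rest, with wt lowest and Eμ-deficient highest.

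Of 9 other E2F, DP and pocket protein genes, 7 rose, 1 fell and E2f5 was not called. Tfdp1, the DP subunit that most E2F factors need to bind DNA, had the largest rise (log2 2.97, SE 0.26, edgeR adjusted p = 0.000101), followed by E2f8, a repressor (2.71, SE 0.33, edgeR adjusted p = 0.000403). The fall was that of Tfdp2, the other DP subunit (-1.51, SE 0.37, edgeR adjusted p = 0.0105). Tfdp2 stood at 19.8, 59.8 and 18.8 CPM at rest and at 12.6, 9.83 and 7.64 CPM with LPS. The resting Eμ-deficient value stood apart. That library also had the highest erythroid, plasma cell, myeloid and T-cell marker sums at rest and the lowest B-cell marker sum. The part of these markers in the Tfdp2 value was not tested.

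Of 7 genes of the MuvB core and its partners, 3 rose, among them Mybl2 (log2 3.51, SE 0.27, edgeR adjusted p = 7.16e-05) and Foxm1 (1.94, SE 0.23, edgeR adjusted p = 0.000353), the activators that replace the pocket proteins on the core. Lin37, Lin52, Lin54 and Rbbp4 were not called. Of 6 tested CDK inhibitor genes, 2 rose, Cdkn2c (1.66, SE 0.28, edgeR adjusted p = 0.00205), an inhibitor of Cdk4 and Cdk6, and Cdkn2a, which had 3, 0 and 2 counts at rest and 38, 10 and 18 with LPS. Cdkn1a, Cdkn1b, Cdkn2b and Cdkn2d were not called.

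Of 9 other genes of G1 progression, 4 rose and 2 fell, where 19.7% and 21.1% of all genes did. Cdc25a, a phosphatase that activates Cdk2, rose (log2 2.12, SE 0.23, edgeR adjusted p = 0.000251), as did Ccnh, a subunit of the CDK-activating kinase (1.48, SE 0.26, edgeR adjusted p = 0.00247). The falls were those of Ccnd1 and of Myc, which encodes a factor that binds the CACGTG word (-1.60, SE 0.31, edgeR adjusted p = 0.0038). Myc stood at 194.1, 138.9 and 113.6 CPM at rest and at 45.7, 35.5 and 67.8 CPM with LPS, and the groups did not overlap. No gene of these lists was called for a genotype term.

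Over the 6 libraries, the gene most like each of the 10 genes was found by the Pearson correlation of log2 CPM among 7914 genes with a mean of at least 10 CPM. The libraries share the LPS contrast, so that high values are common among genes that moved with it. Each value is also the highest of 7914 over only 6 libraries, which favours values near 1 for any gene. They are given as a description. Rpa2, one of the E2F targets above, was most like Ccnd2 (r = 0.9996), Banf1 most like Cdk4 (0.9997), Esco2 most like Ccne2 (0.9985), Srm most like E2f1 (0.9988), Cpd most like Ccne1 (0.9972) and Mat2a most like Cdk6 (0.9973). For the 3 of the 10 genes without a called change, Txnip was most like Rbl2 (0.9956), Cenpq most like Rb1 (0.9976) and Zfpl1 most like Ccnd3 (0.9847). For E2f2 it was Rn18s-rs5, a ribosomal RNA-related name whose reads can map to several places (0.995). Among the 10 genes, Ccnd2 and Cdk4 had r = 0.98, Rbl2 had r between -0.96 and -0.84 with the 7 genes that rose, and Rb1 and Rbl2 had r = 0.13.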

How the data were processed

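The values are raw counts per gene name from RNAseq, deposited by the authors, who mapped 2 × 150 nt paired reads of stranded, ribosomal RNA-depleted libraries to mm10 with STAR 2.4.0a and Ensembl release 77 and counted fragments with featureCounts (Subread 1.4.6-p1, strand option 1, multi-mapping reads included). The methods name 4 mice per genotype in 2 pools, the labels pools of 2. The legend of the RNAseq figure of the study gives the mean of 2 experiments and another number of mice. The deposited counts hold 1 library per genotype and state. The labels give 5 μg per ml LPS in the treatment but milligrams in a protocol text, and another RNA extraction than the methods.

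The 92 spike-in RNAs (4.75% to 7.10% of counts) were left out of library sizes. Counts were scaled by TMM and fitted with edgeR 4.0.16 in R 4.3.3. Ratios of 2 libraries have exact conditional binomial (Clopper-Pearson) 95% intervals from scipy 1.17.1, which cover counting error only. GENCODE M21 (GRCm38) gave coordinates, exon length and GC content, and RefSeq the promoters. On simulated counts with 200 changed genes, the LPS term recovered 20.0% of 2-fold and 88.5% of 4-fold changes, with 11.1% and 2.21% false calls. In the data the LPS term called 2883 genes higher and 3079 lower. The adjusted threshold depends on that number, so these rates need not hold for the LPS changes in the data.

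The 10 genes, the lists and the tests were chosen with earlier results of these data known. Named were the 10 genes, up to 2 rises and 2 falls called per list, and the most correlated gene. Alternatives were other scalings and filters, DESeq2 1.42.0, removal of trends on GC content and length, fits without a genotype term or to single pairs of genotypes, and leaving out libraries.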

Additional observations from a re-analysis of the deposited data

Results flagged for a closer look

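The LPS effect on Rb1 went in opposite directions in the genotypes, each from 1 library per state, and the difference was not tested. The log2 ratio of LPS over resting was 0.59 in wt and -0.49 in Eμ-deficient B-cells, a difference of -1.08 with a counting SE of 0.10. It was -0.65 in 3′RR-deficient B-cells, a difference from wt of -1.25 with a counting SE of 0.12. With the GC trend of all genes removed, the ratios were 0.14 in wt, -0.40 in Eμ-deficient and -0.31 in 3′RR-deficient B-cells, and the differences from wt were -0.55 and -0.45. With library sizes set by the spike-in RNAs, the ratios were -0.20, -0.32 and -0.65, so that the direction was the same in the 3 genotypes. Both differences use the same wt libraries.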

How the results depend on the processing

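The 7 rises with LPS were called under all 11 alternatives fitted for the LPS term. Spike-in scaling and removal of the length trend were not among these. They were applied to the ratios of 2 libraries only, so whether the calls hold under them was not tested. The count of the 10 genes lower by LPS was 0, and 1 with the GC trend removed (Rbl2) or without the wt libraries (Rb1). Of 30 ratios of LPS over resting, 17 were past 2-fold, and 1 changed sign, with spike-in scaling. Of 40 ratios to wt, 3 were past 2-fold, and 8 with spike-in scaling, which changed the sign of 8, as removal of the GC trend did of 6. Spike-in scaling moved every LPS over resting ratio of wt by -0.79 and every LPS ratio of 3′RR-deficient to wt by 0.55, and scaling by total counts moved those of wt by -0.25. For single ratios, the cause was not tested.

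Over all genes, those lower by LPS numbered 3079, and 1845 to 3229 when a genotype was left out, the lowest without Eμ-deficient. Those higher in 3′RR-deficient than wt numbered 25, and 135 without a filter, 16 with a stricter filter (50 counts in 3 libraries), 56 with DESeq2, 53 with only these 2 genotypes, and 38 to 821 when a library was left out. Those lower numbered 74, and 204, 32, 122, 124 and 70 to 700 under the same settings. In Eμ-deficient, those higher numbered 133, and 484 without a filter, 277 with DESeq2, 325 with only these 2 genotypes and 166 to 717 when a library was left out. Those lower numbered 37, and 121 without a filter, 12 with the stricter one, 63 with DESeq2, 68 with only these 2 genotypes and 28 to 513. The highest counts came without resting wt for 3′RR-deficient and without LPS wt for Eμ-deficient. In such a fit the lone library of a genotype is assumed to vary like the others.

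Of the fitted log2 values of the 10 genes, none of the genotype terms was called and 12 of 20 changed sign. For 3′RR-deficient against wt, removal of the GC trend turned Ccne2 (-0.29 to 0.33), Cdk6 (-0.11 to 0.05) and E2f2 (0.25 to -0.03). When a library was left out, the values went from -0.29 to 0.01 for Ccnd2, -0.06 to 0.54 for Ccnd3, -1.17 to 1.38 for Ccne2, -0.56 to 0.41 for Cdk6, -0.18 to 0.77 for E2f2 and -0.25 to 0.05 for Rbl2. Without resting wt, Ccne2 (edgeR adjusted p = 0.0324) and Rb1 (-1.22, edgeR adjusted p = 0.0111) were called lower. For Eμ-deficient against wt, E2f1 (-0.02) was 0.01 with the stricter filter and 0.10 with the GC trend removed, and Rb1 (0.05) was -0.02 by total counts and without a filter. When a library was left out, the values went from -0.49 to 2.10 for Ccne2, -0.89 to 0.12 for Cdk6, -0.25 to 0.15 for E2f1, -0.31 to 0.67 for E2f2, -0.51 to 0.67 for Rb1 and -0.41 to 0.18 for Rbl2, and Ccne2 was called higher without LPS wt (edgeR adjusted p = 0.00488). For the LPS term, Rb1 (-0.18) went from -0.55 to 0.07 when a genotype was left out. The genotype term pairs the 2 libraries of a genotype, and without it the same 7 of the 10 genes were called higher with LPS.

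With 25 to 92 counts of Ccne2 and 53 to 91 of E2f1 at rest, ratios of these genes have wide counting intervals, and with 1 pool per genotype and state the spread between mice is unknown.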
